A study of Arabidopsis thaliana with 18 samples.

Results

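Glucosinolate genes were followed between 2 times of day in wild type Arabidopsis thaliana. The set holds 39 genes, chosen by gene identifier for their known place in the pathway. It consists of 27 genes of the aliphatic branch, 7 of the indolic branch, 3 core genes that serve both branches and 2 myrosinases. All 39 were among the 33331 genes listed, and 37 passed the filter on low values (more than 1 TPM on average at LL36 or at LL24), which 19303 genes passed in all. TPM is a transcript's share of a library corrected for its length.

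The series compared 3 lines at 2 times, with 3 biological replicates per group. The groups used here are both of Col-2 wild type (wt) plants without a transgene, harvested 36 h (LL36, subjective dusk) or 24 h (LL24, subjective dawn) after transfer to continuous light (LL), with 3 libraries each. All plants had first spent 16 days in cycles of 12 h light and 12 h dark, and polyadenylated RNA came from the aerial parts of several plants bulked per replicate. The lines AtGRP7-ox, which expresses the RNA-binding protein AtGRP7 from the cauliflower mosaic virus 35S promoter, and grp7-1 8i, a T-DNA mutant of AtGRP7 with an RNAi construct against AtGRP8, were not analysed here, since the names of their 12 columns match no label. Time of day cannot be told apart from the additional 12 h in continuous light.

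Glucosinolates are sulfur-rich thioglucosides by which plants of the cabbage family defend themselves against herbivores and microbes. Aliphatic glucosinolates derive from methionine, whose side chain is first lengthened in the chloroplast, and indolic glucosinolates derive from tryptophan. CYP79 enzymes convert the amino acids to aldoximes, CYP83 enzymes oxidise these further, and conjugation with glutathione, cleavage of the carbon-sulfur bond, glucosylation and sulfation complete the core, after which the side chain is modified. Myrosinases cleave the stored product when tissue is broken. MYB28, MYB29 and MYB76 activate the aliphatic branch, and MYB34, MYB51 and MYB122 the indolic branch.

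The clock and the tissue were checked first. AtGRP7, a clock-controlled transcript with an evening peak, had 4855, 4623 and 4458 TPM at LL36 and 132, 132 and 100 TPM at LL24 (values of single libraries are given for replicates 1, 2 and 3 throughout). TOC1 and GI were also higher at LL36, and the morning genes CCA1 and LHY were lower, so that 5 of 5 clock transcripts were called (limma, with a call at a Benjamini-Hochberg adjusted p below 0.05, the adjustment covering every gene tested). Of the 5 root markers, 2 passed the filter and 0 were called (limma; 1 at an unadjusted p below 0.05 and lower at LL36), with summed levels of 0.715 to 2.09 TPM at LL36 and 1.35 to 7.44 TPM at LL24. Seed markers summed to at most 1.88 TPM at LL36 and 1.73 TPM at LL24, with SESA3 at 0 in all 6 libraries, and flower markers to at most 1.35 TPM at LL36 and 1.25 TPM at LL24. The 3 green leaf markers RBCS1A, CAB1 and CA1 were called lower at LL36 on the deposited values, with sums of 29082 to 31777 TPM at LL36 and 39622 to 41807 TPM at LL24, while quantile normalization called 1 of them lower and CAB1 higher. TPM are shares of a total, so each value depends on all others. The part of these 3 transcripts in the shift given next was not tested. Across the 19303 genes, the median change lay at 0.21 on the log2 scale. It was 0.11 without the 100 most abundant genes and 0.01 when libraries were scaled by the median of ratios. Changes are therefore given as fitted on log2(TPM + 0.5) and, where stated, relative to this shift of 0.21. The log2 values correlated across genes with r of 0.976 to 0.984 within a time and 0.935 to 0.943 between times.

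Aliphatic genes of the set were mostly lower at LL36 than at LL24. GSL-OH, which hydroxylates alkenyl side chains, lies outside the set and rose by 1.20, as described below. Summed over its 27 genes, the aliphatic branch reached 1760, 2075 and 2048 TPM at LL36 and 2868, 3246 and 2847 TPM at LL24, without overlap. The mean sum was 1961 TPM at LL36 and 2987 TPM at LL24, of which GSTU20 alone made up 601 and 1097 TPM. Of the 26 aliphatic genes tested, 20 were called lower and 0 higher (limma; 20 lower and 0 higher also at an unadjusted p below 0.05). Of all genes tested, 11.2% were called lower and 41.2% higher. With median-of-ratios scaling 22 of the 26 were called lower and 0 higher, beside 18.2% of all genes called lower and 16.0% called higher. The median change of the aliphatic genes was -0.49, or -0.71 relative to the shift, and all 26 lay below the median of all genes. The 20 calls were also made under each of the 3 scalings tried, and 16 of them under each of the 15 alternative settings. In bulk tissue, fewer cells of a type and less RNA per cell cannot be told apart.

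Indolic genes did not move as a group. The branch summed to 230, 217 and 243 TPM at LL36 and 183, 231 and 187 TPM at LL24, and these ranges overlap. Of its 6 tested genes, 2 were called higher and 0 lower (limma, with 2 higher and 1 lower at an unadjusted p below 0.05). Of all genes, 41.2% were called higher and 11.2% lower. Median-of-ratios scaling called 0 higher and 2 lower (1 higher and 2 lower at an unadjusted p below 0.05), beside 16.0% and 18.2% of all genes. Quantile normalization called 1 in each direction. Their median change was 0.16, or -0.05 relative to the shift, with single genes between -0.38 and 0.50. Over the whole set of 37, the tested genes comprised 21 called lower, 2 called higher and 14 not called, and the libraries of the 2 times did not overlap for 24 of them. Such separation was common, as it was found for 63.8% of all tested genes.

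**Figure D1:**
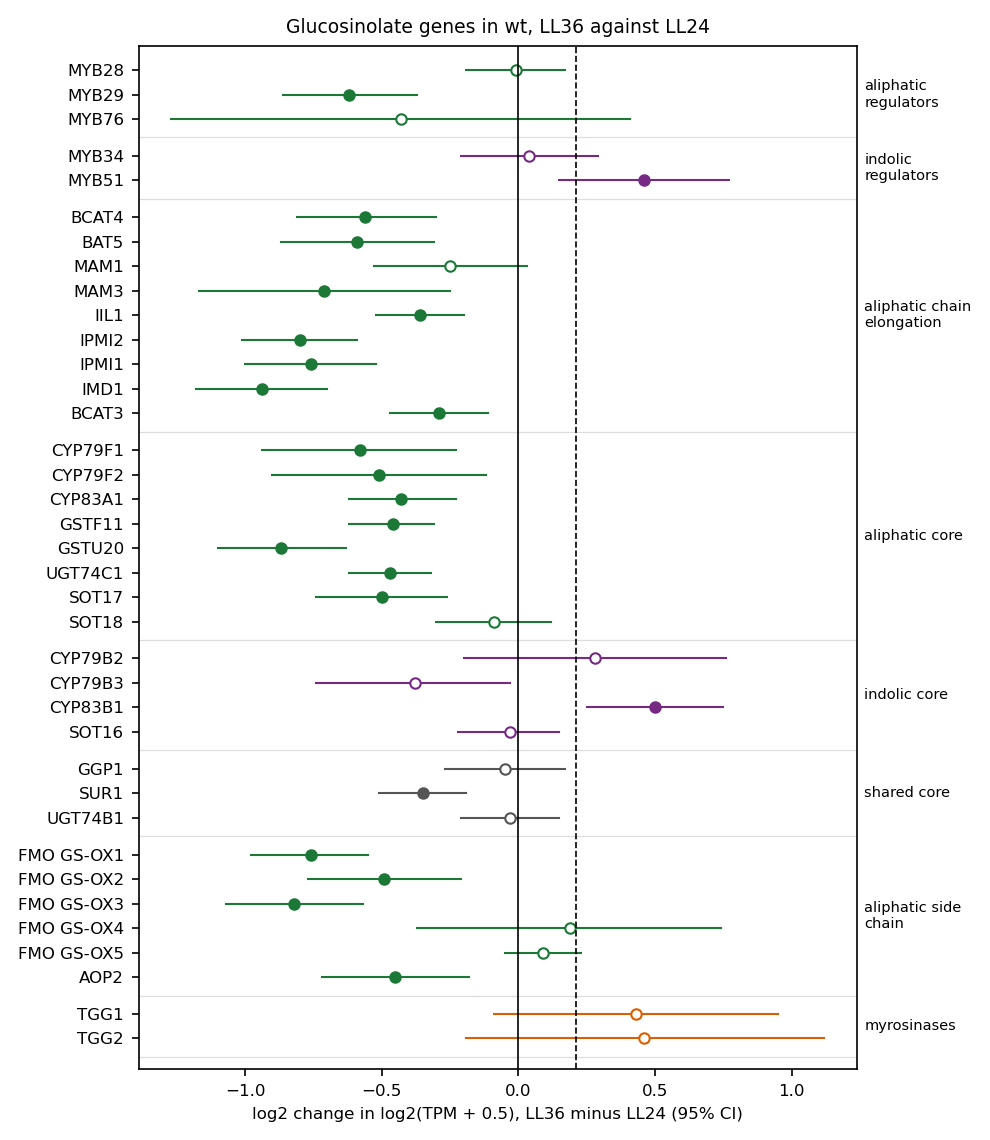
Log2 change in log2(TPM + 0.5), LL36 minus LL24, of the 37 tested glucosinolate genes in wt, ordered by role. Points are limma estimates with 95% confidence intervals, filled where the adjusted p is below 0.05 and open otherwise; the solid line marks 0 and the dashed line the median of all tested genes at 0.21. Green aliphatic points all lie left of the dashed line, purple indolic points lie on both sides of it, and both orange myrosinases lie to its right.

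Short stretches of sequence around the gene start were searched because clock proteins bind known motifs in such regions. The window ran from 250 bases before to 50 bases after the annotated gene start in the RefSeq annotation of TAIR10.1 (the deposited table was made on TAIR10), and 38 of the 39 genes had one. AOP2, annotated there as a transcribed pseudogene, had none. The letters CACGTG of the G-box, which bHLH and bZIP factors bind, occurred on either strand in 6 of the 38 windows (15.8%) and in 7.68% of 27443 protein-coding genes. The CCA1 binding site AAAAATCT occurred in 4 of the 38 (10.5%) and in 7.88% of all. The evening element AAAATATCT was found in 1 of the 38 (2.63%), that of CYP79B2, and in 2.82% of all. This match lies after the start, as do the G-boxes of MYB122, BAT5 and FMO GS-OX3 and the CCA1 binding sites of MYB28 and MAM1. Such matches are a description of the letters in these windows and are no evidence of binding. Within the aliphatic branch, 4 of 26 windows held a G-box (BAT5, IIL1, CYP83A1 and FMO GS-OX3) and 4 of 26 a CCA1 binding site (MYB28, MAM1, CYP79F1 and AOP3). The 4 genes whose match lies wholly upstream of the start and which were called lower at LL36 are shown, 5′ to 3′ on the strand of the gene, with the matched letters in capitals.
IIL1 (chr4:7807997-7808042, minus strand, G-box 38 bases upstream): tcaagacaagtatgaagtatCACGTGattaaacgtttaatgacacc
CYP83A1 (chr4:7992447-7992492, minus strand, G-box 43 bases upstream): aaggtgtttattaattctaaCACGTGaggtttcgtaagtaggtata
SUR1 (chr2:8880465-8880510, minus strand, G-box 50 bases upstream): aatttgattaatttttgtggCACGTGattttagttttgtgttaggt
CYP79F1 (chr1:5608625-5608672, plus strand, CCA1 binding site 37 bases upstream): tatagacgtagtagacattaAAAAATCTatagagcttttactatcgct

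The aliphatic regulators differed among themselves. MYB28 (AT5G61420), the most abundant of the 6 MYB genes, had 60.1, 64.3 and 55 TPM at LL36 and 56.2, 61.6 and 62.3 TPM at LL24. Its libraries overlapped completely, and the change was -0.01 (95% confidence interval -0.19 to 0.17, adjusted p = 0.939, limma). MYB29 (AT5G07690, chr5:2446669-2448584) had 17, 19.2 and 16.1 TPM at LL36 and 23.7, 29.6 and 27.8 TPM at LL24. Each LL36 library was below each LL24 library, and MYB29 fell by 0.62 on the log2 scale (SE 0.10, adjusted p = 0.00367), a call made under all 15 alternatives. Its neighbour MYB76 (AT5G07700, chr5:2450027-2451807) had 10.7, 27.7 and 14.7 TPM at LL36 and 17.3, 29 and 22.1 TPM at LL24. Replicate 2 was the highest library at both times, and the change of -0.43 (SE 0.35) was not called (adjusted p = 0.33). Without replicate 2 of LL36 it was -0.80 with an adjusted p of 0.0477, without replicate 1 of LL36 it was -0.14 (0.745), and without replicate 2 of LL24 it was -0.24 (0.62). Within a library, MYB28 exceeded MYB29 by a factor of 3.53, 3.35 and 3.42 at LL36 and of 2.38, 2.08 and 2.24 at LL24. This ratio does not depend on the scaling between libraries and separated the times completely, with 0.1 the smallest p that an exact permutation test of 3 against 3 libraries can give.

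Among the indolic regulators, MYB34 (AT5G60890) had 19.5, 19.9 and 19.6 TPM at LL36 and 17.9, 22.6 and 17.3 TPM at LL24. The LL36 libraries were nearly identical and lay within the range of the LL24 libraries (change 0.04, interval -0.21 to 0.29, adjusted p = 0.77), and the sign turned under median-of-ratios scaling (-0.17), under quantile normalization (-0.15) and without the 100 most abundant genes (-0.071). MYB51 (AT1G18570) had 8.28, 6.51 and 8.7 TPM at LL36 and 5.07, 5.22 and 6.26 TPM at LL24. All LL36 libraries were higher, and MYB51 rose by 0.46 (SE 0.13, adjusted p = 0.0235), but the call was lost with median-of-ratios scaling (0.27, adjusted p = 0.162), with quantile normalization (0.27, 0.142), without the 100 most abundant genes (0.37, 0.0675), without LL24 replicate 1 (0.41, 0.0614) or 2 (0.43, 0.066) and without LL36 replicate 1 (0.42, 0.0757) or 3 (0.39, 0.0737). MYB122 (AT1G74080) did not pass the filter. It had 0.539, 0.166 and 0.209 TPM at LL36 and 0.0602, 0.021 and 0 TPM at LL24. Fitted without the filter, it was called higher (0.58, SE 0.17, adjusted p = 0.0452).

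**Figure D2:**
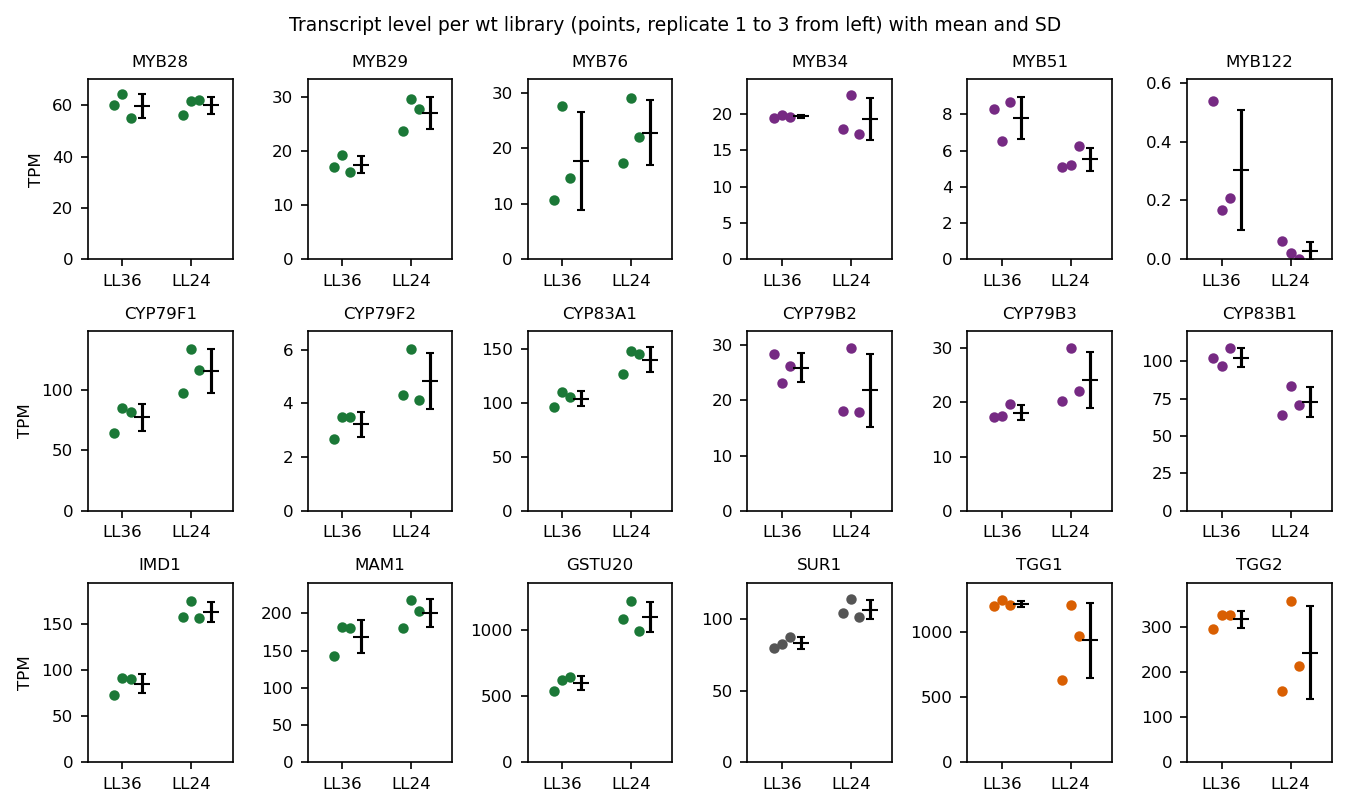
Transcript level in TPM of 18 glucosinolate genes in each wt library, with LL36 at the left and LL24 at the right of each panel, points for replicates 1 to 3, and the mean with SD at the side (n = 3). Each axis starts at 0 and has its own scale. MYB29, the CYP79F genes, CYP83A1, IMD1, GSTU20, SUR1 and the indolic CYP79B3 are lower in every LL36 library. CYP83B1, MYB51 and MYB122, which did not pass the filter, are higher in every LL36 library. TGG1 and TGG2 spread widely at LL24 only.

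Chain elongation, which lengthens methionine before it enters the core pathway, had 8 of 9 genes called lower, with a median of -0.59 (-0.80 relative to the shift). BCAT4 (AT3G19710), the aminotransferase that starts the cycle, had 88.3, 107 and 109 TPM at LL36 and 142, 167 and 140 TPM at LL24 (change -0.56, adjusted p = 0.00577). The times were well separated, although 15.4% of the 100-base windows of its transcript are shared with the adjacent gene AT3G19700. BAT5, the transporter that brings the 2-oxo acids into the chloroplast, had 36.4, 47.1 and 42 TPM at LL36 and 56, 69.7 and 63.8 TPM at LL24 (-0.59, adjusted p = 0.00685).

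Methylthioalkylmalate synthases perform the condensation. MAM1 (AT5G23010, chr5:7703041-7706973), which yields short chains, had 143, 182 and 181 TPM at LL36 and 180, 218 and 203 TPM at LL24. The libraries overlapped slightly, and the change of -0.25 was not called (SE 0.12, adjusted p = 0.111), although median-of-ratios scaling called it (-0.46, adjusted p = 0.0208), as did leaving out the 100 most abundant genes (-0.36, 0.0458). Without LL36 replicate 1 the change was -0.14 (adjusted p = 0.265). MAM3 (AT5G23020, chr5:7718118-7721866), which also makes long chains, was expressed at a far lower level, with 5.59, 7.58 and 9.28 TPM at LL36 and 13.4, 13.6 and 10.2 TPM at LL24. MAM3 fell by 0.71 (SE 0.19, adjusted p = 0.0214). The call was lost without LL24 replicate 1 (adjusted p = 0.059), without LL24 replicate 2 (0.0636) and without LL36 replicate 2 (0.0559), and was kept without LL24 replicate 3 (0.0223), LL36 replicate 1 (0.0451) or LL36 replicate 3 (0.0146).

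Isomerization and oxidative decarboxylation complete each turn of the cycle, and these steps hold the gene with the largest change among the tested aliphatic members. IMD1 (AT5G14200), the isopropylmalate dehydrogenase of this pathway, had 73.4, 91.7 and 90.4 TPM at LL36 and 158, 175 and 156 TPM at LL24. Every LL36 library was far below every LL24 library, and IMD1 fell by 0.94 (SE 0.10, adjusted p = 0.000579; -1.15 relative to the shift), the largest decrease among the 37 tested genes. IPMI2 (AT2G43100) and IPMI1 (AT3G58990), small subunits of the isomerase, fell by 0.80 (adjusted p = 0.000665) and by 0.76 (0.00142). IPMI2 had 77.9, 92 and 91.1 TPM at LL36 and 152, 162 and 140 TPM at LL24. IIL1, the large subunit, which also serves leucine synthesis, fell by 0.36 only (adjusted p = 0.00496). BCAT3, which acts in both methionine chain elongation and the synthesis of branched-chain amino acids, fell by 0.29 (adjusted p = 0.0189), with an adjusted p of 0.0536 without LL24 replicate 2 and of 0.0606 without LL36 replicate 1.

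In the aliphatic core pathway, 7 of 8 genes were called lower, with a median of -0.48 (-0.70 relative to the shift). CYP79F1 (AT1G16410), which makes the aldoximes of short-chain and long-chain methionine derivatives, had 64.9, 85.3 and 82 TPM at LL36 and 97.3, 134 and 117 TPM at LL24. It fell by 0.58 (SE 0.15, adjusted p = 0.0169). Its tandem copy CYP79F2 (AT1G16400), which acts on long chains, was far less abundant, with 2.69, 3.49 and 3.48 TPM at LL36 and 4.31, 6.03 and 4.14 TPM at LL24, and the ratio of CYP79F1 to CYP79F2 overlapped between the times (24.1, 24.4 and 23.5 at LL36, 22.6, 22.3 and 28.4 at LL24). CYP79F2 was called at -0.51 (adjusted p = 0.0379), and this call was not made without a filter on low values (adjusted p = 0.0645), without LL24 replicate 2 (-0.35, 0.0777) or without LL36 replicate 1 (-0.40, 0.109), 2 (-0.56, 0.0656) or 3 (-0.56, 0.0619). CYP83A1 (AT4G13770), the next enzyme, had 96.2, 110 and 105 TPM at LL36 and 127, 148 and 145 TPM at LL24, a decrease by 0.43 (adjusted p = 0.00575) that was called under all 15 alternatives.

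Later core enzymes were led by GSTU20 (AT1G78370), a glutathione transferase assigned to the aliphatic branch and its most abundant transcript. It had 540, 622 and 641 TPM at LL36 and 1079, 1220 and 993 TPM at LL24, and fell by 0.87 (SE 0.10, adjusted p = 0.000751). The glucosyltransferase UGT74C1 fell by 0.47 (adjusted p = 0.00156; 10.8% of its windows are shared with another gene) and the sulfotransferase SOT17 by 0.50 (0.00734). SOT18, the other aliphatic sulfotransferase, had 47, 55.5 and 50.3 TPM at LL36 and 55.4, 58 and 49.2 TPM at LL24 and was not called (-0.09, interval -0.30 to 0.12, adjusted p = 0.418), except with median-of-ratios scaling (-0.30, 0.0356). GSTF11 was called at -0.46 (adjusted p = 0.0016), but 82.4% of its windows lie in AT3G03200 as well and the library kit does not keep strand, so that its value is uncertain.

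Of the 4 corresponding indolic enzymes, 1 was called on the deposited values, CYP83B1. CYP79B2 (AT4G39950) and CYP79B3 (AT2G22330) both convert tryptophan to indole-3-acetaldoxime. CYP79B2 had 28.4, 23.1 and 26.3 TPM at LL36 and 18.1, 29.4 and 17.9 TPM at LL24, so that its highest and its lowest library both belonged to LL24 (0.28, SE 0.20, adjusted p = 0.272). Without LL24 replicate 2 the change was 0.51 with an adjusted p of 0.0112, and without LL24 replicate 1 or 3 it was 0.17 (0.541) or 0.16 (0.563). CYP79B3 had 17.2, 17.5 and 19.6 TPM at LL36 and 20.3, 30 and 22 TPM at LL24. All LL36 libraries were lower, and the change of -0.38 (SE 0.15) was not called on the deposited values (adjusted p = 0.0648) but was called with median-of-ratios scaling (-0.59, 0.0181), with quantile normalization (-0.56, 0.0242), without the 100 most abundant genes (-0.50, 0.0355) and without LL24 replicate 1 (-0.50, 0.0319), while it was -0.22 (0.0801) without LL24 replicate 2. The ratio of CYP79B2 to CYP79B3 was 1.65, 1.32 and 1.34 at LL36 and 0.891, 0.981 and 0.811 at LL24, so that CYP79B2 was the more abundant of the pair in each LL36 library and the less abundant in each LL24 library.

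CYP83B1 (AT4G31500), which oxidises indole-3-acetaldoxime, had 102, 96.6 and 109 TPM at LL36 and 63.8, 83.5 and 70.9 TPM at LL24. It was the tested member with the largest increase, at 0.50 (SE 0.10, adjusted p = 0.00832). Only median-of-ratios scaling among the 15 alternatives lost the call (0.29, adjusted p = 0.0633). The sulfotransferase SOT16, which prefers indolic substrates, had 54.2, 52.9 and 59.6 TPM at LL36 and 57.8, 60.5 and 52.3 TPM at LL24 and was not called (-0.03, interval -0.22 to 0.15, adjusted p = 0.734); median-of-ratios scaling called it lower (-0.24, 0.0432).

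Of the 3 core genes that serve both branches, 1 was called. SUR1 (AT2G20610), the C-S lyase, had 79.4, 82.2 and 87.6 TPM at LL36 and 104, 114 and 101 TPM at LL24. It fell by 0.35 (SE 0.07, adjusted p = 0.00584), with no overlap and under all 15 alternatives. GGP1, which trims the glutathione conjugates, and the glucosyltransferase UGT74B1 were not called, with changes of -0.05 (adjusted p = 0.679) and -0.03 (0.766). With median-of-ratios scaling UGT74B1 was called at -0.24 (adjusted p = 0.0437).

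To compare the branches directly, aliphatic genes were divided by indolic or shared genes of the same step within each library, which removes any scaling between libraries. Counting the ratios of paralogs given above, 16 were computed. The ratio of CYP83A1 to CYP83B1 was 0.944, 1.14 and 0.967 at LL36 and 2, 1.77 and 2.04 at LL24, so that the 2 transcripts were about equal at subjective dusk and the aliphatic one prevailed at subjective dawn. CYP79F1 over CYP79B2 was 2.29, 3.7 and 3.12 at LL36 and 5.39, 4.56 and 6.56 at LL24. For the sulfotransferases, SOT17 over SOT16 was 0.596, 0.698 and 0.62 at LL36 and 0.895, 0.915 and 0.841 at LL24. The glucosyltransferases UGT74C1 over UGT74B1 gave 1.01, 1.06 and 1.06 at LL36 and 1.37, 1.37 and 1.51 at LL24. In each of these pairs the ratio was lower in every LL36 library than in any LL24 library. The ratios of MYB29 to MYB34 (0.872, 0.964 and 0.82 at LL36, 1.32, 1.31 and 1.6 at LL24) and of MYB28 to MYB51 (7.26, 9.88 and 6.33 at LL36, 11.1, 11.8 and 9.95 at LL24) also separated the times. By contrast, CYP79F1 over CYP79B3, MYB28 over MYB34, MYB76 over MYB51 and SOT18 over SOT16 overlapped between the times. MYB28 over MYB34, for example, was 3.08, 3.23 and 2.8 at LL36 and 3.14, 2.72 and 3.6 at LL24. With 3 libraries per time the smallest p of an exact permutation test is 0.1 for any of these ratios, so none is given a call.

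**Figure D3:**
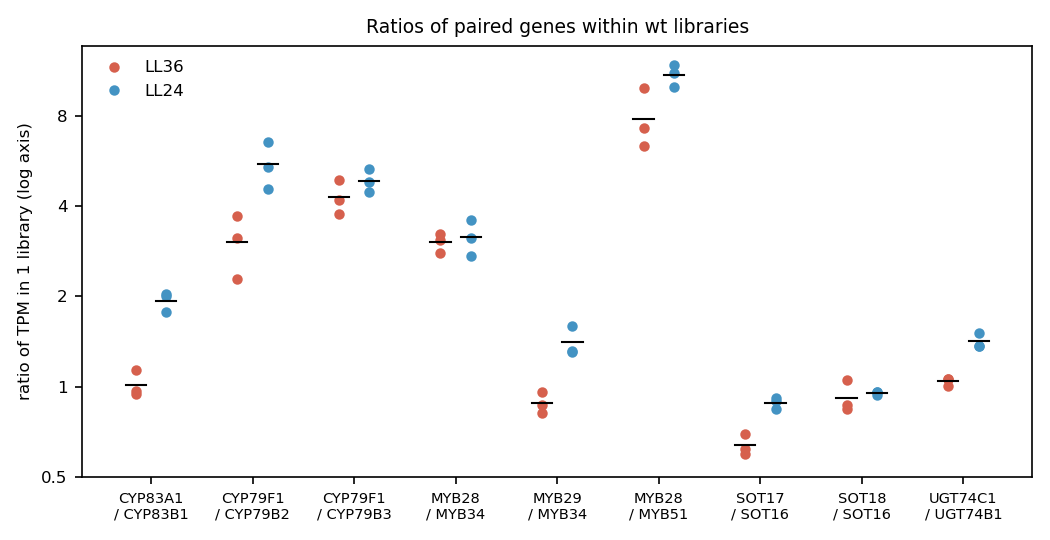
Ratio of TPM of an aliphatic gene to an indolic or shared gene of the same step within each wt library, on a log axis, LL36 (red) left of LL24 (blue), with bars at the mean of 3 libraries. The ratio of CYP83A1 to CYP83B1 lies between 0.944 and 1.14 at LL36 and between 1.77 and 2.04 at LL24, whereas CYP79F1 over CYP79B3, MYB28 over MYB34 and SOT18 over SOT16 overlap.

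Side-chain genes modify the finished aliphatic glucosinolates. The flavin monooxygenases FMO GS-OX1 to FMO GS-OX5 oxidise the sulfur of the side chain, and they split into 3 that fell and 2 that were not called. FMO GS-OX3 (AT1G62560) had 23.1, 27.1 and 27.8 TPM at LL36 and 40.7, 49.3 and 48.7 TPM at LL24, a decrease by 0.82 (adjusted p = 0.00122). FMO GS-OX1 had 15.2, 18.4 and 18 TPM at LL36 and 29.9, 30.9 and 27.8 TPM at LL24 and fell by 0.76 (0.000829), and FMO GS-OX2 fell by 0.49 (0.014). FMO GS-OX4 (AT1G62570) lies next to FMO GS-OX3 on chromosome 1 and had 14, 13.4 and 14.1 TPM at LL36 and 18.3, 9.56 and 10.1 TPM at LL24. Its replicate 1 at LL24 stood apart from the other LL24 libraries: the change was 0.19 (adjusted p = 0.519) with it and 0.47 (0.00256) without it, it was 0.023 without LL24 replicate 2 and 0.062 without LL24 replicate 3, and the sign turned to -0.018 with median-of-ratios scaling and to -0.0024 with quantile normalization. FMO GS-OX5 was at 16.2 to 18.2 TPM in all 6 libraries (0.09, adjusted p = 0.227; 18.5% of its windows are shared with other genes), and its sign turned with median-of-ratios scaling (-0.12), with quantile normalization (-0.10) and without the 100 most abundant genes (-0.019).

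AOP2 and AOP3 lie side by side on chromosome 4 and encode dioxygenases that act on methylsulfinylalkyl side chains. AOP2 (AT4G03060) had 25.6, 29.1 and 28.8 TPM at LL36 and 33, 38.4 and 43.8 TPM at LL24 and fell by 0.45 (SE 0.11, adjusted p = 0.0153), with -0.39 and 0.0522 without LL36 replicate 1. The annotation of TAIR10.1 lists it as a transcribed pseudogene, so that its transcript does not imply an enzyme. AOP3 was listed at 0 in 5 of 6 libraries and at 0.0229 TPM in LL36 replicate 3, and was not tested.

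Members near each other did not always share a direction. MYB51 (chr1:6389399-6391386) and SOT17 (chr1:6398531-6400029) lie in the same part of chromosome 1. MYB51 was called higher at LL36 on the deposited values but not with median-of-ratios scaling, and SOT17 was called lower. On the same chromosome MYB122, SOT18 and SOT16 follow each other, of which MYB122 did not pass the filter and the others were not called on the deposited values.

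Myrosinases were among the most abundant transcripts of the tissue. TGG1 (AT5G26000) had 1207, 1249 and 1210 TPM at LL36 and 633, 1210 and 975 TPM at LL24, and TGG2 (AT5G25980) had 296, 328 and 328 TPM at LL36 and 158, 358 and 214 TPM at LL24. For both genes the LL36 libraries agreed closely while the LL24 libraries spread over about a factor of 2, with replicate 1 lowest and replicate 2 highest. Neither was called, with changes of 0.43 (SE 0.22, adjusted p = 0.139) for TGG1 and 0.46 (adjusted p = 0.194) for TGG2, or 0.22 and 0.25 relative to the shift. Without LL24 replicate 2 both were called higher at LL36 (0.64, adjusted p = 0.0334, for TGG1 and 0.78, 0.00838, for TGG2), whereas without LL24 replicate 1 the changes were 0.17 for TGG1 and 0.20 for TGG2, with a median of -0.02 relative to the shift. TGG1 over TGG2 was 4.08, 3.81 and 3.69 at LL36 and 4, 3.38 and 4.56 at LL24, so that their ratio varied less at LL24 than either gene did.

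Both myrosinases are made in guard cells and myrosin cells, a cell type specified by FAMA. The 4 guard cell markers FAMA, KAT1, MYB60 and HT1 summed to 46.1, 48.1 and 46.7 TPM at LL36 and 40.2, 46.4 and 54.1 TPM at LL24, and 0 of 4 were called (limma; 0 also at an unadjusted p below 0.05). At LL24 they were lowest in replicate 1, as TGG1 and TGG2 were, but highest in replicate 3. The 5 root markers had their highest sum in LL24 replicate 1 as well, where TGG1 and TGG2 were lowest and FMO GS-OX4 highest (7.44 TPM, beside 2.56 and 1.35 TPM in LL24 replicates 2 and 3). The part of either marker list in these spreads was not tested.

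Some deviations from the group mean were shared by many aliphatic genes. Of the 26 tested, 22 had their lowest LL36 value in replicate 1 and 21 their highest LL24 value in replicate 2. At LL36 the rapid response transcripts, which touch, wounding or cold induce within minutes, stood apart in another library, with sums of 223, 235 and 416 TPM at LL36 and 377, 472 and 550 TPM at LL24. Of the 12 tested, 2 were called higher (CBF1 and CBF3) and 2 lower (TCH2 and TCH4) at LL36, beside 41.2% and 11.2% of all genes. Their median change was -0.49 (-0.70 relative to the shift), and 9 lay below the median of all genes. Without LL36 replicate 3, 8 of 11 rapid response transcripts were called lower and 1 higher, with a median of -0.87, and 19 aliphatic genes were called lower. Of all 19304 genes tested in that setting, 1933 were called lower and 6073 higher. With a replicate block, 7 of the 12 were called lower and 2 higher, beside 2215 lower and 7732 higher of all 19303 genes. The part of these transcripts in the aliphatic differences was not tested.

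Beyond the 39 genes, 54 others are known to act in or around the pathway, and 49 of them were tested. Of these, 18 were called higher and 10 lower at LL36, beside 41.2% and 11.2% of all tested genes, and 13 of the 18 and all 10 were called under each of the 3 scalings. Their median of 0.17, or -0.04 relative to the shift, lay close to the median of all genes. They are described by function, with single values for those that changed by more than 1 on the log2 scale.

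Sulfur supply feeds every glucosinolate. Of the 8 genes listed for it, 6 were called lower, beside 11.2% of all genes. GSH1, the first enzyme of glutathione synthesis, was called higher, beside 41.2% of all genes. Median-of-ratios scaling did not call GSH1 and called APR3 lower as well, beside 18.2% of all genes called lower. APR2 (AT1G62180), a major APS reductase, had 71.7, 84.7 and 93 TPM at LL36 and 387, 345 and 418 TPM at LL24. This was the largest change among the tested pathway genes, at -2.20 (SE 0.11, adjusted p = 2.59e-05), although 39.7% of its windows are shared with other annotated genes. ATPS1, an ATP sulfurylase, fell by 0.85 (adjusted p = 0.000204), and APK1 and APK2, the kinases that make the sulfate donor for SOT16 to SOT18, fell by 0.51 (0.00121) and by 0.46 (0.00525).

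Of 8 tested genes that modify indolic side chains, 3 were called higher, beside 41.2% of all genes, and 0 lower (limma; 0 also at an unadjusted p below 0.05). Quantile normalization called CYP81F1 lower (-0.57 and an adjusted p of 0.0973 on the deposited values). Its value is uncertain, since 92.4% of its windows are shared with AT4G37432 and it averaged 0.81 TPM at LL36 and 1.5 TPM at LL24. The 3 called genes were IGMT1, IGMT4 and IGMT5, indole glucosinolate O-methyltransferases. IGMT5 (AT1G76790) had 64, 58.7 and 60.5 TPM at LL36 and 17.6, 21.3 and 16.5 TPM at LL24 (1.71, adjusted p = 4.29e-05). IGMT4 (AT1G21130) had 165, 146 and 151 TPM at LL36 and 44.4, 42.6 and 56 TPM at LL24 (1.69, 7.52e-05), and IGMT1 (AT1G21100) had 5.96, 4.64 and 4.92 TPM at LL36 and 1.96, 1.65 and 2.26 TPM at LL24 (1.21, 0.000734). IGMT1 to IGMT4 are closely related copies, and IGMT1 and IGMT4 share 3.46% and 3.49% of their windows with others of the group, so reads may have been split between them. PEN3 (AT1G59870), a plasma membrane ABC transporter with a role in the export of defence compounds, had 190, 170 and 170 TPM at LL36 and 54.8, 50 and 53.5 TPM at LL24 (1.73, adjusted p = 7.44e-06).

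Tryptophan supply was represented by 2 genes only, and both were called higher, beside 41.2% of all genes. ASA1 rose by 0.77 (0.56 relative to the shift, adjusted p = 0.00343) and TSB1 by 0.89 (0.68 relative to the shift, 0.00043). They encode subunits of anthranilate synthase and tryptophan synthase. A further group of 8 joins core genes with the isopropylmalate dehydrogenase genes IMD2 and IMD3 and the side-chain gene GSL-OH. Of these 8, 5 were called higher, beside 41.2% of all genes, and 1 lower. The lower one was CB5-C, a cytochrome b5 (-0.47, adjusted p = 0.00659, under all 15 alternatives). IMD2, among the 5, lost its call with median-of-ratios scaling (adjusted p = 0.247), with quantile normalization (0.0859) and without the 100 most abundant genes. GSL-OH (AT2G25450), which hydroxylates alkenyl side chains, had 435, 468 and 510 TPM at LL36 and 227, 194 and 194 TPM at LL24. It rose by 1.20 (adjusted p = 0.000113), while the AOP2 transcript fell. AOP2 stands upstream of GSL-OH in the pathway, but is annotated in TAIR10.1 as a transcribed pseudogene. GSTF9 and GSTF10, glutathione transferases linked to the core pathway, rose by 0.57 (adjusted p = 0.00114) and 0.96 (0.000999), against the decrease of GSTU20.

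Among 10 further regulators, 3 were called lower, beside 11.2% of all genes. These included MYC4 (-0.97, adjusted p = 0.000196), a partner of the MYB factors, and SDI2 (-0.98, 0.00644), related to the repressor SDI1. The other was SLIM1 (-0.40, 0.0143), a regulator of the response to sulfur limitation. MYC3 (0.31, adjusted p = 0.00503) and FRS12 (0.30, 0.0107) were called higher, beside 41.2% of all genes, though neither with median-of-ratios scaling. MYC2 was not called (-0.09, adjusted p = 0.613), and 98.5% of its windows are shared with AT1G32630, so its value is uncertain. Of 10 tested breakdown genes, 4 were called higher (PEN2, an atypical myrosinase, ESM1, MBP1 and MVP1) and 0 lower (limma; 0 also at an unadjusted p below 0.05), a share of higher calls near the 41.2% of all genes. With median-of-ratios scaling 3 were called higher and 2 lower, namely NSP1 (adjusted p = 0.0167) and BGLU23 (0.0255). PEN2 rose by 0.76 (adjusted p = 0.000259) and ESM1, which favours isothiocyanate formation, by 0.60 (0.000187). MBP1 was called at 0.74 (adjusted p = 0.0315) but in only 6 of the 15 alternatives. The transporters GTR1 and GTR2, which import glucosinolates into cells, were not called (adjusted p = 0.661 for GTR1 and 0.981 for GTR2), except that median-of-ratios scaling called GTR1 lower (-0.25, 0.0378).

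**Figure D4:**
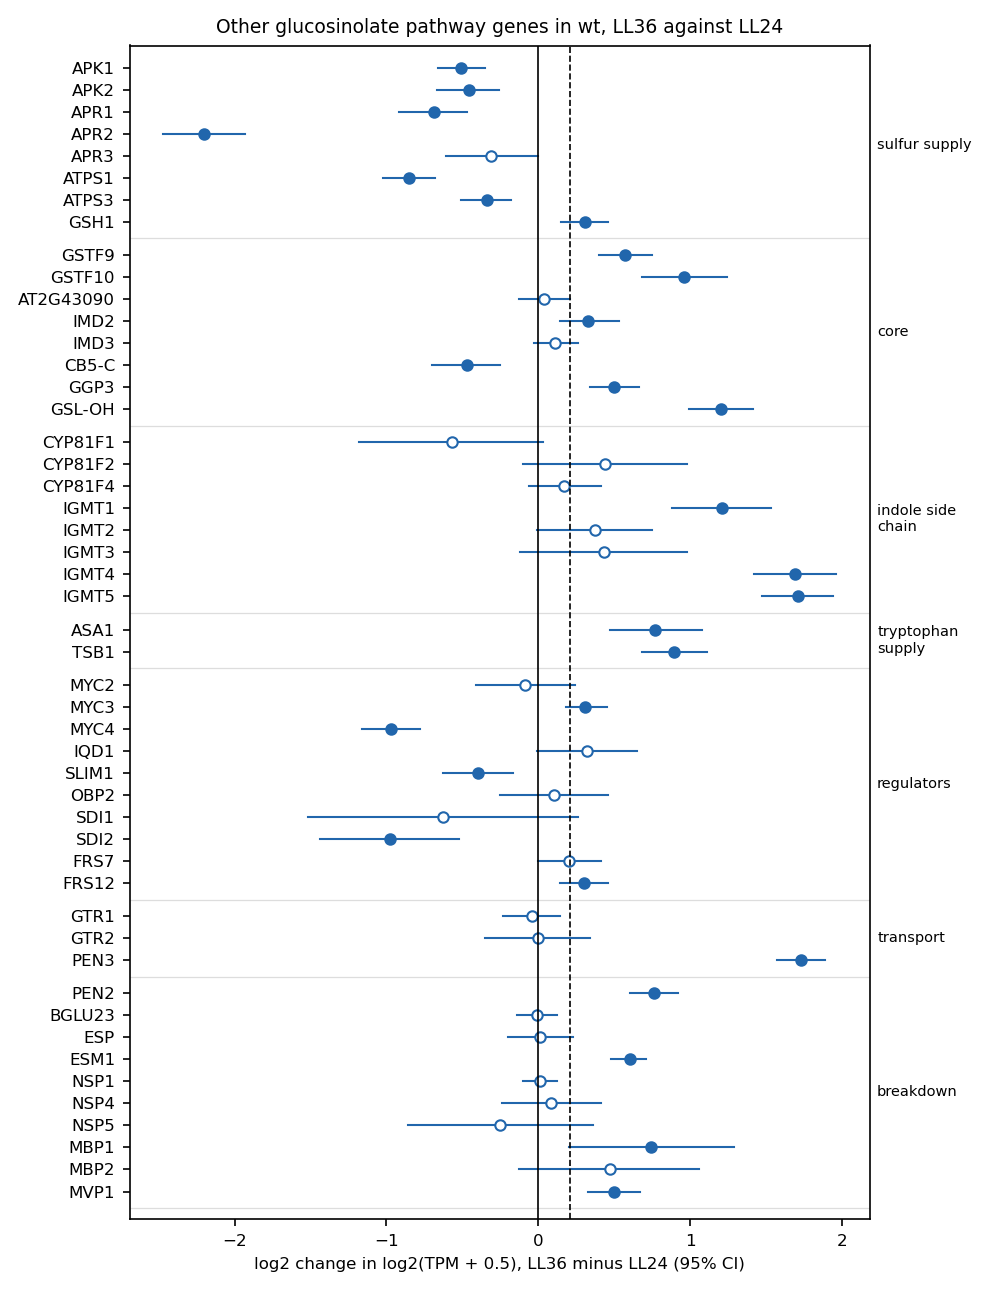
Log2 change in log2(TPM + 0.5), LL36 minus LL24, of 49 further pathway genes in wt, grouped by function, drawn as limma estimates with 95% confidence intervals, filled where the adjusted p is below 0.05. The solid line marks 0 and the dashed line the median of all tested genes at 0.21. Sulfur supply genes lie mostly to the left, with APR2 at -2.20, and IGMT4, IGMT5 and PEN3 lie farthest to the right, between 1.69 and 1.73.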

How the data were processed

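RNA was sequenced in 18 samples of 6 groups, of which the 6 wt libraries were used. The deposited TPM per gene were made by the authors from the first read of each pair, trimmed with Sickle, mapped with STAR 2.5.2a and quantified with Salmon 0.8.2 on the atRTD annotation of TAIR10 (versions from the submitters' processing notes, the rest from the study's methods), with rRNA and organellar genes left out. The unstranded TruSeq v2 kit leaves overlapping genes unresolved. TPM keep no depth (column totals were 990489 to 992864), so counting errors could not be given. The other 12 columns carry names that match no label and were not used in any step, so the planned comparisons between lines were not made.

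Genes above 1 TPM on average at either time were tested on log2(TPM + 0.5), a scale that understates changes of low genes, with limma 3.58.1 in R 4.3.3 (empirical Bayes with a mean-variance trend, two-sided), and called where p, adjusted by Benjamini-Hochberg for every gene tested, was below 0.05. The fit was tested on simulated data. Alternatives were pseudocounts of 0.1 and 1, no filter, a minimum of 5 TPM, no trend, quantile normalization, median-of-ratios scaling, removal of the 100 most abundant genes, a replicate block and leaving out each library. Shared windows are 100-base stretches found on either strand in transcripts of another gene of TAIR10.1.

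Members and lists were chosen with earlier results of these data known. By the rule for named genes, values per library are given for the MYB, CYP79 and CYP83 genes, BCAT4, MAM1, MAM3, SUR1, TGG1 and TGG2. Up to 4 further members per role were named by size of change, and other pathway genes where the change exceeded 1. Any other gene named, and any ratio, was chosen after its values were seen. Replicates are labelled as biological, and p-values measure the spread between these samples.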

Additional observations from a re-analysis of the deposited data

How the results depend on the processing

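The median change of the aliphatic genes kept its direction under all 15 alternatives and lay between -0.69 and -0.44. Between 17 and 20 genes were called lower when a single library was left out and between 19 and 22 under the other settings, and the median relative to the shift of all genes stayed between -0.76 and -0.62. The higher calls depended on the scaling. Of all genes, 10107 were called on the deposited values (7949 higher, 2158 lower), 6599 with median-of-ratios scaling (3095 higher, 3504 lower), 6632 with quantile normalization (3607 higher, 3025 lower) and 7509 without the 100 most abundant genes (4893 higher, 2616 lower). Among the members, and likewise among the indolic genes, 2 higher calls became 0, 1 and 1 under these 3 settings, and 0 lower calls of indolic genes became 2, 1 and 1. Without a filter on low values the higher calls were 3, with MYB122 gained. Leaving out 1 library gave 1 to 4 higher calls among the members (4 without LL24 replicate 2, through TGG1, TGG2 and CYP79B2), 0 to 1 among the aliphatic genes (FMO GS-OX4, without LL24 replicate 1) and 1 to 2 among the indolic genes, and 0 to 1 lower calls among the indolic genes. The direction of MYB34 turned with median-of-ratios scaling (-0.17), with quantile normalization (-0.15) and without the 100 most abundant genes (-0.071), that of FMO GS-OX5 under the same settings (-0.12, -0.10 and -0.019), and that of FMO GS-OX4 under the first 2 (-0.018 and -0.0024). With single libraries left out, 5 genes close to 0 changed sign, within ranges of -0.061 to 0.05 for MYB28, -0.031 to 0.16 for MYB34, -0.091 to 0.013 for SOT16, -0.15 to 0.013 for GGP1 and -0.10 to 0.022 for UGT74B1. The cause of these dependences was not tested beyond the construction of each setting.

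The libraries were not treated as paired by their replicate numbers, because same-numbered libraries correlated in their deviations with r of 0.128, 0.148 and 0.0341 and 1 of the 3 lies below 0.1. With the replicate block, 9947 genes were called (7732 higher, 2215 lower), 22 aliphatic genes were lower and 0 higher, and 2 indolic genes were higher and 0 lower. MYB76 (-0.43, adjusted p = 0.0496) and MAM1 (-0.25, adjusted p = 0.0197) were called lower with the block but not without it. Each library correlated best with its own number, a hint from the data and not from the design.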
